A study of Rattus norvegicus with 17 samples.

Results

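The 10 genes described here make and recycle glutathione and thioredoxin or remove superoxide and hydrogen peroxide: Gclc, Gclm, Gsr, Txnrd1, Nqo1, Gpx1, Prdx1, Sod1, Sod2 and Cat. They were taken by symbol from the annotation of an Illumina rat whole-genome expression array and are 10 of the 13278 named genes on it. Each had a single probe, so no choice between probes was needed. RNA was measured in GK adipose tissue (4 rats), BN adipose tissue (5 rats), GK liver (3 rats) and BN liver (5 rats), with 1 sample on each of 17 arrays. GK is the lean, inbred Goto-Kakizaki strain with spontaneous type 2 diabetes and hyperglycaemia, and BN is the normoglycaemic Brown Norway strain. All rats were males of 7 months fed standard chow, and no treatment was given. The strains are genetically different throughout the genome, so diabetes and strain background cannot be told apart in any GK against BN comparison below. Tissues of a rat carry a shared rat number in the labels, and each of the 3 GK livers and 5 BN livers comes from a rat whose adipose tissue was also arrayed.

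Glutathione is built from glutamate, cysteine and glycine, and its first and rate-limiting step is carried out by glutamate-cysteine ligase, a complex of the catalytic subunit Gclc and the modifier subunit Gclm. Glutathione reductase (Gsr) and thioredoxin reductase (Txnrd1) return oxidised glutathione and thioredoxin to their reduced forms with NADPH, and Nqo1 reduces quinones. Superoxide is converted to hydrogen peroxide by Sod1 in the cytosol and by Sod2 in mitochondria, and hydrogen peroxide is then removed by glutathione peroxidase 1 (Gpx1), peroxiredoxin 1 (Prdx1) and catalase (Cat). Several of these genes are known targets of the transcription factor NRF2 (Nfe2l2), which binds the antioxidant response element and is held back by Keap1. The liver is a main site of glutathione synthesis and export.

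Values are given on a log2 scale after variance stabilizing normalization (vsn) of background-subtracted intensities, so a difference of 1 is a doubling for signals well above background, and levels are compared between arrays and never between genes. A probe was counted as above background on an array when its detection p was under 0.01. By this measure 167 of the 170 values of the 10 genes were above background, and 9 genes were above background on all 17 arrays. The exceptions were Txnrd1 on 3 BN adipose tissue arrays. Each value was averaged over 27 to 87 beads. Between 7315 and 8237 probes were above background on the adipose tissue arrays and between 8004 and 9747 on the liver arrays.

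The labelled tissues were compared with marker genes. All 8 measured hepatocyte markers were above background on the BN liver arrays and on GK liver replicates 1 and 3, and 6 or 7 of 7 adipocyte markers were so on the adipose tissue arrays. GK liver replicate 2 went against its label. Its 8 measured kidney tubule markers were all above background with a summed intensity of 177395.5, against 67.3 to 186.3 on the other GK liver arrays and 46.4 to 114.3 on BN liver arrays, and its hepatocyte markers summed to 25870.9, against 183065.2 to 311985.1 on the other GK liver arrays and 308578.7 to 389732.4 on BN liver arrays. Liver results are therefore given without and with this array. In adipose tissue, GK replicate 1 had 6 of 8 hepatocyte markers above background with a sum of 2525.4, against at most 239.1 on the other GK arrays and 422.1 on BN arrays. GK adipose tissue replicate 2 had a skeletal muscle marker sum of 75822.9, against 302.7 to 9451.2 on BN arrays. The 3 measured endothelial markers summed to between 1324.8 and 2738.6 on GK adipose tissue arrays and between 4116.7 and 8177.2 on BN ones, without overlap. Only that sum was lower, since 3 of the 3 were above background on each GK array and 2 of 3 on each BN array, and the median marker lay -0.13 to 0.40 from the BN mean on the log2 scale in GK and -0.21 to 0.08 in BN. The median of the 5 measured T and NK cell markers lay 0.77, 1.56, 0.56 and 0.97 above the BN mean on the GK adipose tissue arrays, all above the BN arrays (-0.76 to 0.48). Of these 5 markers 2 to 4 were above background in GK and 1 to 3 in BN, and their sums overlapped, at 204.1 to 741.4 in GK and 94.6 to 333.2 in BN.

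Txnrd1 was the 1 gene of the 10 that passed the test between strains in adipose tissue, and it was higher in GK. Txnrd1 (probe ILMN_1351237) is the cytosolic selenoprotein that keeps thioredoxin reduced. Its background-subtracted intensities were 200.5, 169.6, 107.2 and 177.3 on the 4 GK arrays, against 30.4, 7.5, 19.3, 47.3 and 58.8 on the 5 BN arrays. It was above background on 4 of 4 GK arrays and on BN replicates 4 and 5 alone. On the log2 scale it stood at 7.70, 7.44, 7.30 and 7.68 in GK and at 5.32, 4.41, 4.93, 6.05 and 6.29 in BN. The lowest GK array was above the highest BN array, and the BN arrays were the more scattered, with a mean of 7.53 ± 0.19 in GK (SD, n = 4) and 5.40 ± 0.78 in BN (SD, n = 5). The difference was 2.13 (SE 0.36, adjusted p = 0.0134), where 2.65% of all 22226 probes passed the same threshold in either direction. With 3 of 5 BN values not above background, the size of this difference depends on the scaling, and no fold is given. In bulk tissue, a change in the share of cells that carry a transcript and a change of its amount per cell cannot be told apart.

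The promoter of Txnrd1 is shown because this gene carries the adipose tissue result. RefSeq places 2 transcript starts in the rat genome (GRCr8), and the window around the second runs from 250 bases before to 50 after the start at chr7:22755855-22756154 on the minus strand. Capitals mark a match to TGACNNNGC, the core of the antioxidant response element, which was searched on both strands and here lies on the strand opposite to the gene, so that it reads GCNNNGTCA as printed.
Txnrd1 promoter, second start: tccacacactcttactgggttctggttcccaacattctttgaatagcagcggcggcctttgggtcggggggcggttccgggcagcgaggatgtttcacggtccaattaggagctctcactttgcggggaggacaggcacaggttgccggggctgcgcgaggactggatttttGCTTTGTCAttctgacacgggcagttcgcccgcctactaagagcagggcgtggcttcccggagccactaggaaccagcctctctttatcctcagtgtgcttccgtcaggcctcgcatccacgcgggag
The match lies 69 bases before the start. The window of the other Txnrd1 start, at chr7:22764802-22765101 on the same strand, held no match. The motif was found in 4038 of 33469 windows of the same length (12.1%), so a match is common and says nothing here about binding.

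Slide effects were examined through the 3 slides that carried adipose tissue of both strains. The Txnrd1 difference on those slides was 2.38, 2.89 and 2.75. With slide as a fixed block, where 17 of all 22226 probes passed, the difference was 2.67 and did not pass (adjusted p = 0.0688). With neqc in place of vsn, where 1023 probes passed, the difference was 0.37 and passed (adjusted p = 0.00147). Leaving out any 1 array gave 1.88 to 2.35, with adjusted p between 0.00809 and 0.0484. It was 2.07 without GK replicate 1, the array with hepatocyte markers, and 2.16 without GK replicate 2, the array with muscle markers. The part of the lower endothelial sum and of the T and NK cell markers in the Txnrd1 difference was not tested.

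**Figure D1:**
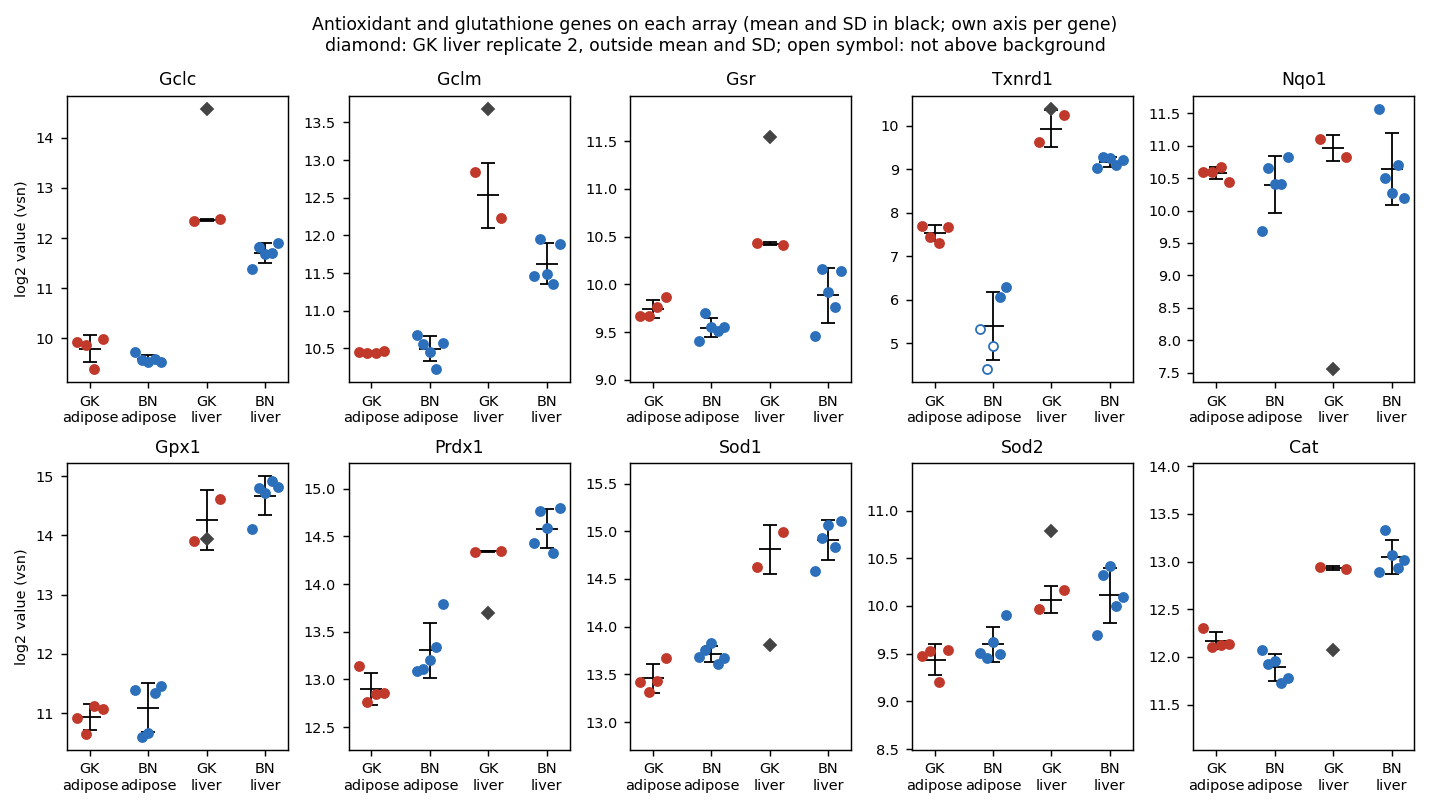
Log2 vsn value of each of the 10 genes on every array, with 1 panel a gene and its own vertical axis, for GK adipose tissue, BN adipose tissue, GK liver and BN liver from left to right. Black bars are the mean and SD without GK liver replicate 2, which is drawn as a diamond, and open symbols are the 3 Txnrd1 values not above background. The 4 GK adipose tissue values of Txnrd1 (7.30 to 7.70) lie above all 5 BN values (4.41 to 6.29).

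The genes of glutathione synthesis and reduction did not pass the test in adipose tissue. Gclc (ILMN_1359516) was at 9.93, 9.87, 9.39 and 9.99 in GK adipose tissue and at 9.72, 9.57, 9.53, 9.58 and 9.53 in BN. GK replicate 3 was below every BN array and the other GK arrays were above them, with a difference of 0.21 (SE 0.16, adjusted p = 0.62). Its partner Gclm (ILMN_1374114) was at 10.46, 10.44, 10.44 and 10.46 in GK and at 10.67, 10.56, 10.46, 10.23 and 10.57 in BN. The GK values lay close together inside the BN range, and the difference was -0.05 with a 95% confidence interval of -0.37 to 0.27. Gsr (ILMN_1352580) was at 9.67, 9.67, 9.76 and 9.87 in GK and at 9.41, 9.70, 9.56, 9.52 and 9.56 in BN, where BN replicate 2 alone reached the GK range. The Gsr difference was 0.19 (SE 0.14, adjusted p = 0.57). Nqo1 (ILMN_2039396), the quinone reductase, was at 10.60, 10.59, 10.67 and 10.45 in GK and at 9.68, 10.66, 10.41, 10.42 and 10.83 in BN. BN replicate 1 was the lowest array. The Nqo1 difference was 0.18 (SE 0.23, adjusted p = 0.78), and -0.0014 without that array.

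Among the enzymes that remove peroxide in adipose tissue, Cat was at higher values and Prdx1 at lower values in GK, and neither passed. Cat (ILMN_1369530), the peroxisomal catalase, was at 12.30, 12.10, 12.13 and 12.14 in GK and at 12.07, 11.92, 11.96, 11.72 and 11.78 in BN. The GK arrays were all above the BN arrays, and the difference was 0.28 (SE 0.14, adjusted p = 0.42). Txnrd1 and Cat were thus 2 of 10 genes higher in GK without overlap, where 3.71% of all probes were. Prdx1 (ILMN_1372596), a thioredoxin-dependent peroxidase, was at 13.15, 12.76, 12.85 and 12.85 in GK and at 13.09, 13.11, 13.20, 13.34 and 13.79 in BN. GK replicate 1 was the array that overlapped BN, and the difference was -0.40 (SE 0.19, adjusted p = 0.36). Gpx1 (ILMN_1372510), the selenium-dependent glutathione peroxidase, was at 10.92, 10.64, 11.12 and 11.07 in GK and at 11.39, 10.60, 10.67, 11.35 and 11.46 in BN. BN replicates 2 and 3 were near the lowest GK array and the other BN arrays above every GK array, with a difference of -0.16 (SE 0.23, adjusted p = 0.82).

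The superoxide dismutases did not pass in adipose tissue either. Sod1 (ILMN_1353544) was at 13.43, 13.32, 13.43 and 13.67 in GK and at 13.68, 13.75, 13.83, 13.61 and 13.67 in BN. GK replicate 4 was inside the BN range and the other GK arrays below it, and the difference was -0.25 (SE 0.14, adjusted p = 0.47). Sod2 (ILMN_1367263) was at 9.48, 9.53, 9.20 and 9.54 in GK and at 9.51, 9.45, 9.62, 9.50 and 9.91 in BN, and the strains overlapped with a difference of -0.16 (SE 0.16, adjusted p = 0.71). Over the 10 genes, 5 differences were above 0 and 5 below, with a median of 0.06 against 0.02 over all probes. Without Txnrd1 they ran between -0.40 and 0.28. The median size of a difference, regardless of sign, was 0.20 for the 10 genes, against 0.26 over all probes and 0.22 over those above background.

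In liver without GK replicate 2, no gene of the 10 passed the test, against 1.21% of all probes. Gclc, Gclm, Gsr and Txnrd1 had both remaining GK arrays above all 5 BN arrays. Such separation upward was seen for 7.91% of all probes, and 3 of the 10 genes had an unadjusted p under 0.05, as did 2882 of 22226 probes. Gclc was at 12.35 and 12.38 in GK liver and at 11.37, 11.83, 11.69, 11.71 and 11.90 in BN liver. The GK values were close to each other, and the difference was 0.66 (SE 0.23, adjusted p = 0.30), or 1.58-fold. Gclm was at 12.84 and 12.22 in GK and at 11.46, 11.95, 11.48, 11.36 and 11.89 in BN. Its difference was 0.90 (SE 0.29, adjusted p = 0.24), or 1.87-fold, and its GK arrays lay further apart than those of Gclc.

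The Gclm promoter is shown as that of the gene with the largest difference among the 10 in these liver arrays, at chr2:213031885-213032184 on the plus strand of GRCr8, with the same motif in capitals 163 bases before the start.
Gclm promoter: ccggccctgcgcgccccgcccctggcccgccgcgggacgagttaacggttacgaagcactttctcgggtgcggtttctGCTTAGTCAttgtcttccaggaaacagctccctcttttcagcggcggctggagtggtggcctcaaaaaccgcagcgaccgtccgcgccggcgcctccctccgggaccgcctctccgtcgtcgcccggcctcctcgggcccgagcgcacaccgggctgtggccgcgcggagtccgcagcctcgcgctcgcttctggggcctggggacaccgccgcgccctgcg
Prdx1 and Sod2 also held the motif. Their matches are shown with the 20 bases on each side, at chr5:135383751-135383799 on the plus strand for Prdx1 and at chr1:50050175-50050223 on the minus strand for Sod2.
Prdx1 site: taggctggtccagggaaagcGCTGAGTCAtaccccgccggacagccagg
Sod2 site: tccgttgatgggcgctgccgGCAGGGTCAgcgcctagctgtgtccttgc
These lie 126 bases before the Prdx1 start and 26 bases before the Sod2 start. The Prdx1 letters also contain TGAGTCA, the AP-1 motif. In all, 4 of 9 genes with a RefSeq window held the antioxidant response element core (Gclm, Txnrd1, Prdx1 and Sod2), and Nqo1, Gclc, Gpx1, Sod1 and Cat did not in the 300 bases read. Counted by window, it was 4 of the 10 windows of these genes, against 12.1% of all 33469 windows. Whether these shares differ was not tested. A match to these letters describes the sequence and is not a measured site.

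Txnrd1 was at 9.63 and 10.24 in GK liver and at 9.02, 9.29, 9.25, 9.10 and 9.20 in BN liver. All liver arrays detected it, the BN arrays were tightly grouped, and the difference was 0.76 (SE 0.25, adjusted p = 0.25), or 1.70-fold. Gsr was at 10.44 and 10.41 in GK and at 9.46, 10.16, 9.92, 9.76 and 10.14 in BN, with a difference of 0.54 (SE 0.27, adjusted p = 0.44). Whether these genes passed depended on the setting. The test was also limited to the 8205 probes above background on every array of a strain, of which 9.64% passed. There Gclm (adjusted p = 0.038) and Txnrd1 (adjusted p = 0.0385) passed. With neqc, where 480 of 22226 probes passed, Gclc (adjusted p = 0.0434) and Txnrd1 (adjusted p = 0.00887) did. On the slide that held GK replicate 3 and BN replicate 3, GK was higher by 0.69 for Gclc, 0.74 for Gclm, 0.50 for Gsr and 0.99 for Txnrd1. GK replicate 1 shared no slide with a BN liver.

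The other 6 genes overlapped between the strains in liver. Nqo1 was at 11.10 and 10.82 in GK and at 11.57, 10.50, 10.26, 10.70 and 10.20 in BN. BN replicate 1, the lowest array for Nqo1 in adipose tissue, was the highest in liver, and the difference was 0.32 (SE 0.39, adjusted p = 0.77). Gpx1 was at 13.91 and 14.62 in GK and at 14.11, 14.80, 14.72, 14.92 and 14.82 in BN. The difference was -0.41 with a wide interval of -1.15 to 0.33. Prdx1 was at 14.34 and 14.34 in GK and at 14.43, 14.76, 14.59, 14.32 and 14.79 in BN, a difference of -0.24 (SE 0.24, adjusted p = 0.70). Both GK arrays were near the lowest BN array.

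Sod1 was at 14.63 and 14.99 in GK liver and at 14.59, 14.93, 15.06, 14.84 and 15.11 in BN liver. Sod2 was at 9.97 and 10.17 in GK and at 9.70, 10.33, 10.42, 10.004 and 10.10 in BN, and Cat was at 12.95 and 12.92 in GK and at 12.89, 13.33, 13.07, 12.93 and 13.01 in BN. All 3 had GK values inside the BN range. Their differences were -0.09 (SE 0.25) for Sod1, -0.04 (SE 0.27) for Sod2 and -0.12 (SE 0.23) for Cat, with adjusted p between 0.86 and 0.96. The sign of these 3 differences turned with neqc and with quantile normalization, where they were 0.06 to 0.09. Over the 10 genes the median was 0.14, against -0.04 over all probes.

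**Figure D2:**
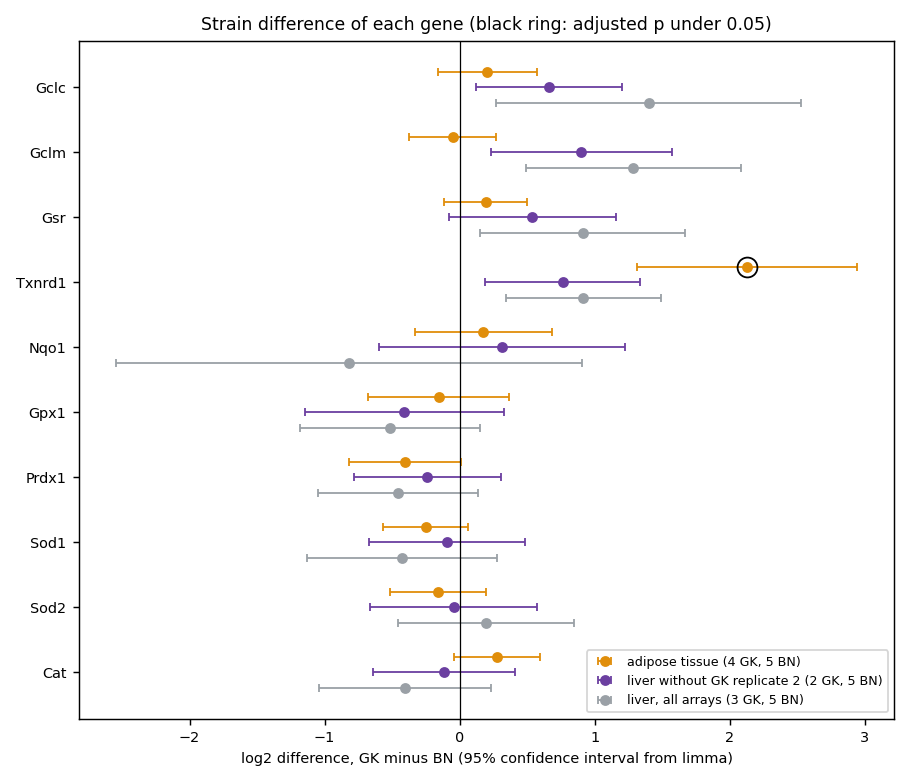
Log2 difference between GK and BN for each gene with its 95% confidence interval from limma, for adipose tissue, liver without GK replicate 2 and liver with all arrays. The black ring marks the adjusted p under 0.05, reached by Txnrd1 in adipose tissue (2.13) and by no gene in either liver comparison.

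GK liver replicate 2, the array with kidney markers, was set against the other 7 liver arrays for each of the 10 genes. It was the highest for 5 genes, the lowest for 4 and inside the range for Gpx1 alone. Such places were not counted over all probes, so they are not read as particular to the 10 genes. Compared with the BN liver mean this array was higher by 2.88 for Gclc (14.58), 2.05 for Gclm (13.68), 1.66 for Gsr (11.55), 1.22 for Txnrd1 (10.39) and 0.67 for Sod2 (10.78). It was lower than that mean for Nqo1 (7.56, a difference of -3.09), Sod1 (13.81, -1.10), Cat (12.07, -0.98) and Prdx1 (13.70, -0.88). Gpx1 was at 13.95, a difference of -0.73. For each of the 4 genes that the other GK livers had above every BN liver, this array was further above.

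With all 3 GK liver arrays no gene passed, against 0.679% of all probes. The same 4 genes were above BN without overlap, where 4.03% of all probes were, and 4 genes had an unadjusted p under 0.05, as did 2658 of 22226 probes. The differences were 1.40 (SE 0.50, adjusted p = 0.33) for Gclc, 1.29 (SE 0.35, adjusted p = 0.21) for Gclm, 0.91 (SE 0.33, adjusted p = 0.35) for Gsr and 0.92 (SE 0.25, adjusted p = 0.21) for Txnrd1. The array with kidney markers was 1 of 3 GK values in each. It turned the sign for Nqo1, at -0.82 with it and 0.32 without it, and for Sod2, at 0.20 with it and -0.04 without it. The median size of a difference over the 10 genes was 0.67 with the array and 0.36 without it, against 0.38 and 0.37 over all probes.

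**Figure D3:**
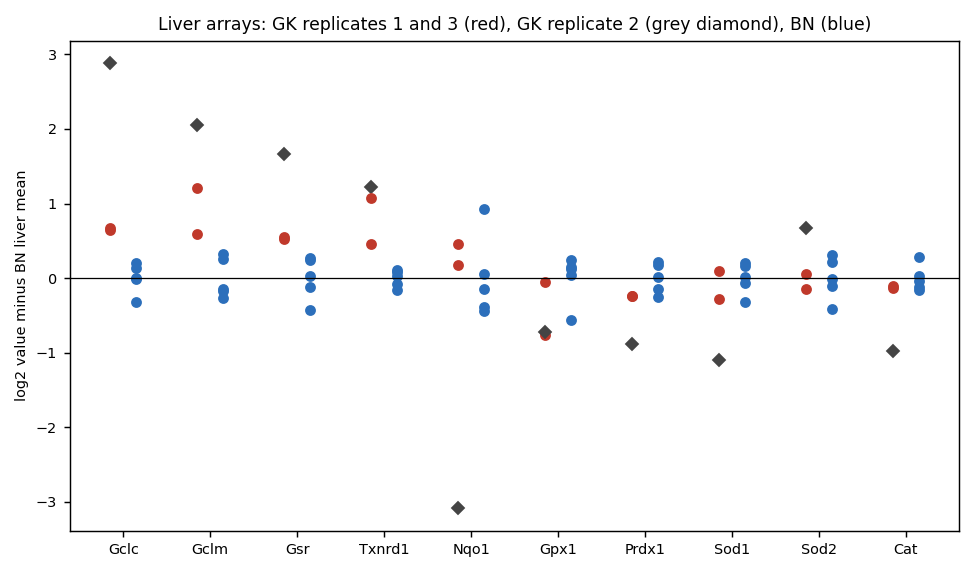
Log2 value of each gene on the 8 liver arrays minus the mean of the 5 BN liver arrays, with the GK arrays left of the BN arrays for each gene. GK replicate 2 (grey diamond) lies between 2.88 above the BN mean for Gclc and 3.09 below it for Nqo1, while GK replicates 1 and 3 (red) are above every BN array for Gclc, Gclm, Gsr and Txnrd1.

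Liver was compared with adipose tissue within the rat. In BN, 7 of 10 genes were higher in liver and none was lower, where 20.8% of all probes were higher in liver and 41.1% of the 8637 probes above background on every array of a tissue were. Gpx1 had the highest fold among genes detected throughout, with a mean of 14.67 ± 0.32 in BN liver and 11.09 ± 0.42 in BN adipose tissue (SD, n = 5) and a difference of 3.58 (SE 0.25, adjusted p = 4.1e-05). It was higher in liver by 2.72 to 4.20 in the 5 rats. Txnrd1 was higher by 3.77 (SE 0.32, adjusted p = 9.9e-05), although 3 of its 5 BN adipose tissue values were not above background. Gclc was higher in liver by 2.11 (SE 0.18) and Gclm by 1.13 (SE 0.17). Prdx1 was higher by 1.27, Sod1 by 1.19 and Cat by 1.16, with adjusted p between 0.0011 and 0.0015.

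Sod2, Gsr and Nqo1 did not pass between the BN tissues. Sod2 was higher in liver in 5 of 5 rats, by 0.19 to 0.88, with a mean difference of 0.51 (adjusted p = 0.072), and Gsr by 0.05 to 0.58, with a mean of 0.34 (adjusted p = 0.16). Among the probes above background both passed (adjusted p = 0.0147 for Sod2 and 0.0409 for Gsr). Nqo1 was between -0.63 and 1.89 in the single rats. BN rat 1 gave the highest of these values, and the mean of 0.25 became -0.16 without it.

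In the 2 GK rats with both tissues, leaving out the rat of GK liver replicate 2, all 10 genes were higher in liver in each rat. The share of all probes that were so was not counted. The median difference was 1.43 over the 10 genes, against 0.004 over all probes. The adipose tissue of 1 of these rats is GK adipose tissue replicate 2, the array with muscle markers, which also had 3 of 8 kidney tubule markers above background with a sum of 371.1, while 0 or 1 of 8 were above background on each BN adipose tissue array. Gpx1 was higher by 3.26 and 3.55, Gclc by 2.38 and 2.48, Txnrd1 by 2.18 and 2.56, and Gclm by 1.76 and 2.40. These 4 genes passed the test (adjusted p between 0.012 and 0.043), where 14.7% of all probes did, in either direction, with 2 rats and 1 residual degree of freedom. With neqc, Gclc and Gclm did not pass (adjusted p = 0.052 and 0.14). Gclm differed more between the tissues in each of these GK rats than in any BN rat, whose range was 0.78 to 1.38. So did Gclc, by a small margin (BN range 1.65 to 2.37). Txnrd1, above background on only 2 of 5 BN adipose tissue arrays, differed less in each GK rat than in any BN rat (BN range 2.92 to 4.87). Such separation was not counted over all probes.

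These tissue patterns were compared through an interaction term, the GK minus BN value of liver less that of adipose tissue. No gene of the 10 passed that test, against 1.86% of all probes, and 2 had an unadjusted p under 0.05, as did 3090 of 22226 probes. For Txnrd1 the term was -1.37 (SE 0.49, adjusted p = 0.21), as its strain difference was 0.76 in liver and 2.13 in adipose tissue. With neqc, where 1009 of 22226 probes passed, it was 0.46 and passed (adjusted p = 0.00685), so its direction depended on the normalization. For Gclm it was 0.95 (SE 0.28, adjusted p = 0.11) on values of 0.90 in liver and -0.05 in adipose tissue, and it passed with neqc (adjusted p = 0.0412) and without GK liver replicate 3 (1.26, adjusted p = 0.0249). For the other 8 genes the terms ran between -0.39 for Cat and 0.45 for Gclc.

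Of 60 other listed gene symbols of the pathway, some of them alternative names of 1 gene, 49 were matched to a probe. In adipose tissue 1 was higher and 2 were lower in GK, and 46 did not pass, where 2.65% of all probes passed in either direction. Cbr1, a carbonyl reductase that uses NADPH, was at 12.33, 12.17, 12.66 and 12.93 in GK adipose tissue and at 10.71, 9.88, 9.74, 10.21 and 10.22 in BN. The groups were far apart, with a difference of 2.37 (SE 0.24, adjusted p = 0.00054), or 5.18-fold. Cbs, which makes cystathionine on the way from homocysteine to cysteine, was at 6.51, 6.28, 5.23 and 6.29 in GK and at 9.43, 9.08, 8.59, 9.08 and 8.47 in BN. GK replicate 3 was not above background and the difference was -2.85 (SE 0.30, adjusted p = 0.00069). Nqo2, a quinone reductase related to Nqo1, was at 8.60, 8.62, 8.40 and 8.76 in GK and at 9.34, 9.18, 9.37, 9.36 and 9.71 in BN, lower by 0.80 (SE 0.16, adjusted p = 0.030). With slide as a fixed block, where 17 of all 22226 probes passed, the differences were 2.53 for Cbr1, -3.03 for Cbs and -0.71 for Nqo2, and none of these 3 passed (adjusted p = 0.18 for Cbr1, 0.13 for Cbs and 0.29 for Nqo2). Nqo2 missed the threshold in 8 of the 9 fits that left out 1 array.

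In liver without GK replicate 2, Mt1 alone passed among these 49 genes, where 1.21% of all probes passed. With all liver arrays Mt1 and Me1 passed, where 0.679% of all probes did. Mt1, a metallothionein that binds zinc and copper, was at 12.36 and 13.05 in GK liver and at 15.35, 15.42, 15.48, 15.55 and 15.63 in BN liver. The BN arrays were tightly grouped far above GK, with a difference of -2.78 (SE 0.26, adjusted p = 0.0032). GK replicate 2 was at 14.05, between the groups, and with it the difference was -2.33 (SE 0.36, adjusted p = 0.029). Me1, the NADPH-producing malic enzyme, was at 8.86 and 8.27 in GK liver, with 9.35 on replicate 2, and at 6.85, 7.34, 6.87, 6.52 and 7.19 in BN liver. It was higher in GK with all arrays (1.87, SE 0.32, adjusted p = 0.044) and just missed the threshold without replicate 2 (1.61, SE 0.30, adjusted p = 0.058). In the fit with all arrays, Mt1 and Me1 each missed the threshold in 7 of the 8 fits that left out 1 array, whereas Mt1 without GK replicate 2 passed in each of 7 such fits.

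Gss, Txn1, Srxn1 and Ccs, named because they act on the same molecules as some of the 10, did not pass in either tissue. Gss, which completes glutathione after Gclc and Gclm, differed by -0.18 in adipose tissue and -0.01 in liver without GK replicate 2. Txn1, the thioredoxin that Txnrd1 reduces, differed by -0.62 (SE 0.31, adjusted p = 0.40) in adipose tissue and -0.15 in liver. Srxn1, which repairs overoxidised peroxiredoxin, was not above background on any array. Ccs, the copper chaperone of Sod1, differed by -0.02 in adipose tissue and -0.41 in liver. Nfe2l2 and Keap1, named after their values were seen, differed by -0.17 and -0.11 in adipose tissue and by 0.24 and -0.61 in liver, and none of these values passed. The median over the 49 genes was -0.18 in adipose tissue, against 0.02 over all probes, and -0.15 in liver, against -0.04.

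**Figure D4:**
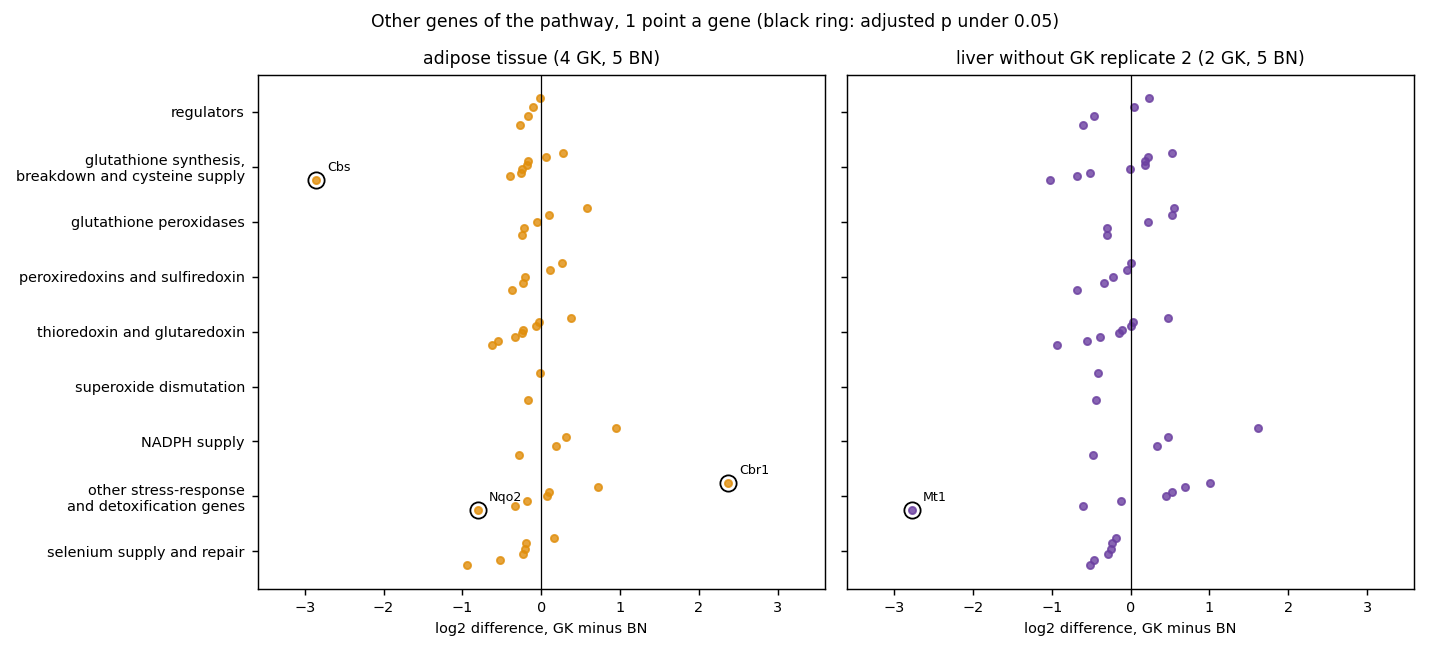
Log2 difference between GK and BN for the 49 other measured genes of the pathway, grouped by role down the page, in adipose tissue (left) and in liver without GK replicate 2 (right). Black rings mark Cbr1 (2.37), Cbs (-2.85) and Nqo2 (-0.80) in adipose tissue and Mt1 (-2.78) in liver, the genes with an adjusted p under 0.05.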

How the data were processed

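The 17 tissue samples were hybridised to Illumina RatRef-12 arrays (22226 probes, 12 slides). The intensity values deposited by the authors are bead averages per probe on a linear scale, not normalized. The detection score deposited with each probe states how surely its signal exceeds that of negative control probes, and scores over 0.99 were counted as above background. The bead numbers and bead SDs deposited beside them were used as a description. A table of log2 values that the authors had normalized with vsn, separately for each tissue, served as an alternative. The paper names 4 rats per strain, whereas the files hold 5 BN rats, all used here, and 3 GK livers. With vsn fitted to 1 tissue, 477 probes were higher and 598 lower in GK adipose tissue. In liver with all 3 GK arrays these were 95 and 138. The paper gives the same 4 numbers as its counts of genes.

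The negative control mean (102.1 to 153.9) was subtracted on each array and vsn was fitted to all arrays together (own code, Python 3.11.15, numpy 2.4.6, scipy 1.17.1, pandas 2.3.3; least trimmed squares quantile 0.9, 7 iterations, 5 slices). When fitted to 1 tissue, this code came within 0.0208 (median) and 0.117 (maximum) of the deposited log2 values. Strains were compared within a tissue with limma 3.58.1 (R 4.3.3, statmod 1.5.0), tissues within a strain with the rat as a fixed block, and the difference of the strain differences with the rat as a random block, without GK liver replicate 2. Both steps were tested on simulated data. P-values were adjusted over all probes by the Benjamini-Hochberg method with a threshold of 0.05. Rats of a strain are separate animals, and their number limits the precision. A symbol was given for 13650 probes.

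The 10 genes and all gene lists were chosen with earlier results of these data known. All 10 are named. Of the other genes of the pathway, those past the threshold between strains in a tissue are named, with up to 4 that act on the same molecules. Promoter windows were taken from RefSeq (GRCr8) and matched by Entrez gene ID for 9 of 10 genes. Alternatives were neqc, quantile normalization, vsn within a tissue, the deposited values, probes above background only, trended and robust variance, 1 fit to all groups, slide or replicate number as a block, and leaving out each array.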

Additional observations from a re-analysis of the deposited data

Results flagged for a closer look

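In 30 groups of 4 or 5 arrays searched for a single far value, 2 were found, and chance gives such a value in about 1 of 20 groups. Gclc stood at 9.72 in BN adipose tissue replicate 1, against 9.53 to 9.58 on the other 4 BN arrays. Gpx1 stood at 14.11 in BN liver replicate 1, against 14.72 to 14.92 on the other 4 BN arrays.

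For 5 of the 49 measured genes of the wider list, the strain difference itself differed between the tissues by the limma interaction term (liver minus adipose tissue), as it did for 1.86% of all probes. The term was -1.93 (SE 0.36, adjusted p = 0.011) for Cbr1, with strain differences of 0.44 in liver and 2.37 in adipose tissue. It was 2.17 (SE 0.42, adjusted p = 0.014) for Cbs, on -0.68 in liver and -2.85 in adipose tissue. It was 1.32 (SE 0.25, adjusted p = 0.0123) for Nqo2, on 0.53 in liver and -0.80 in adipose tissue, and -2.45 (SE 0.45, adjusted p = 0.00908) for Mt1, on -2.78 in liver and -0.34 in adipose tissue. It was 1.03 (SE 0.23, adjusted p = 0.034) for Glrx2, a mitochondrial glutaredoxin named after its values were seen, on 0.48 in liver and -0.55 in adipose tissue. Cbs missed the threshold with neqc (0.64, adjusted p = 0.18) and with GK liver replicate 2 in the fit (1.83, adjusted p = 0.067). Mt1 missed it with that array (-1.996, adjusted p = 0.077), and Nqo2, Mt1 and Cbr1 missed it without GK liver replicate 1 (1.33, -2.14 and -1.97, adjusted p between 0.061 and 0.096). Glrx2 missed it with GK liver replicate 2 in the fit (0.95, adjusted p = 0.078) and without any 1 of BN adipose tissue replicates 3 and 5, GK adipose tissue replicates 1, 2 and 3, BN liver replicates 1, 3, 4 and 5 and GK liver replicate 1 (0.95 to 1.05, adjusted p between 0.051 and 0.18).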

How the results depend on the processing

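Of 840 values of the 10 genes under other settings, 787 kept their direction and side of the threshold, 31 turned direction, 19 passed only there and 3 no longer passed. Over single arrays left out, the number of the 10 genes past the threshold stayed at 1 in adipose tissue, 0 in both liver comparisons and 7 between BN tissues, and was 0 to 1 for the interaction. With slide as a fixed block, where 17 of 22226 probes passed, it was 0 in adipose tissue and Gpx1 was at 0.15. In liver without GK replicate 2 (main count 0) it was 2 with neqc, 1 with quantile normalization and 2 among probes above background. It was 2 with trended and robust variance and 1 with 1 fit to all groups. The counts over all 22226 probes rose as well, from 269 in the main fit to 480 with neqc and 397 with quantile normalization. They were 878 with trended and robust variance, 735 with 1 fit to all groups and 791 of the 8205 probes above background. With all 3 GK liver arrays the number of the 10 genes was 1 with neqc and 1 with quantile normalization. It was 1 among probes above background and 1 with 1 fit to all groups. Over all probes 186, 179, 345 of 8078 and 684 passed in these settings in turn, against 151 in the main fit. With neqc the number of the 10 genes was 2 between GK tissues (main count 4), where 2750 of all probes passed (3258 in the main fit). For the interaction it was 2 with neqc (main count 0), where 1009 of all probes passed (413 in the main fit). The cause was not tested.

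Among the 10 genes, Txnrd1 turned direction in the interaction (0.46 with neqc, -1.37 in the main fit) and Nqo1 did so in liver with all arrays (-0.82, and 0.32 without GK replicate 2). With neqc and quantile normalization, Gclm in adipose tissue was at 0.0155 and 0.0127, Sod1 in liver without GK replicate 2 at 0.0925 and 0.0868, Sod2 at 0.0775 and 0.0707, Cat at 0.0662 and 0.0627, Sod1 with all liver arrays at 0.0249 and 0.0227, and Nqo1 between BN tissues at -0.19 and -0.16. Me1 in the interaction was at -0.31 with neqc. Sod2 in liver without GK replicate 2 was at 0.0071 with vsn within the tissue and 0.0036 with the deposited values. With GK liver replicate 2 the interaction was -0.997 for Nqo1, -0.0483 for Prdx1 and -0.18 for Sod1. Over single arrays left out, Nqo1 in adipose tissue ran between -0.0014 (without BN replicate 1) and 0.28, and in liver without GK replicate 2 Sod1 ran between -0.28 and 0.0893 and Sod2 between -0.15 and 0.0555. With all liver arrays, Nqo1 ran between -1.46 and 0.32 and Sod2 between -0.0425 and 0.36, the ends of 0.32 and -0.0425 being those without GK replicate 2. Nqo1 between BN tissues ran between -0.16 (without BN rat 1) and 0.47. Glrx2 between BN tissues ran between -0.11 and 0.0392, the turned end without BN rat 5. In the interaction Nqo1 ran between -0.0004 and 0.38 and Gpx1 between -0.60 and 0.0991, with the turned ends without GK liver replicate 1, and Sod1 between -0.0237 (without GK liver replicate 3) and 0.33.

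Replicate numbers do not mark shared rats across strains, and the labels give no day. Same-numbered arrays of both strains shared a slide for adipose tissue replicate 1 and for liver replicates 2 and 3. In adipose tissue GK replicates 3 and 4 shared slides with BN replicates 2 and 3. Deviations of same-numbered arrays correlated at -0.22 to 0.08 in adipose tissue and at -0.11 and 0.09 in liver. With the replicate block, 184 probes passed in adipose tissue (588 without it), Txnrd1 was at 2.35 (adjusted p = 0.0287) and Nqo2 no longer passed (adjusted p = 0.21). In liver without GK replicate 2 no probe passed by limma (1650 with an unadjusted p under 0.05), with Sod2 at 0.0071 and Mt1 at -2.71 (adjusted p = 0.49). That liver fit compares the strains through replicates 1 and 3 alone, so it cannot tell a lost difference from lost precision. Slide as a block could not be fitted in liver without GK replicate 2. Other probes of a gene could not be tried, as each of the 10 has 1. With 2 usable GK livers, intervals in liver are wide, and Txnrd1 in BN adipose tissue lies near background, where its log2 value depends on the scaling.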
